A study of Mus musculus with 24 samples.

Results

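The genes described here are 10 regulators of the actin cytoskeleton and of adhesion plaques in leukocytes, measured by RNA-seq in the bone marrow of mice with and without Nrf2. They are Fmnl1, Was, Cyfip2, Arpc1b, Vasp, Coro1a, Flna, Myh9, Tln1 and Zyx, taken by name from a table of 54752 genes, and all 10 were among the 12373 genes that were tested because they exceeded 1 TPM, a transcript abundance, in at least 1 library. Fmnl1, Cyfip2 and Zyx were picked because they were lower in Nrf2-KO mice in these same libraries, and the other 7 were added for their role with earlier results known, so the differences between genotypes are given below as a description, without a test. TPM is a share of each library's transcripts scaled for transcript length, so levels of different genes can be set side by side.

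Male mice of C57BL/6 background were compared in 4 groups of 6, with 1 library per mouse. GC-WT and GC-KO were wild-type and Nrf2-KO mice kept on the ground, and FL-WT and FL-KO were wild-type and Nrf2-KO mice that spent 31 days in the International Space Station and were sampled 2 days after landing. The flight mice were 8 weeks old at transport to the launch site. Mice were chosen after acclimation in individual cages, and marrow of the right pelvis and tibia was cryopreserved before RNA was isolated. The mice of the ground control were kept in Japan, whereas the flight mice were processed in the United States after landing, so flight and the place of handling cannot be told apart. The labels give the mutant as Nrf2 KO, and the cells of the marrow were not sorted.

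Leukocytes crawl, engulf particles and squeeze through vessel walls by building and dismantling networks of actin filaments beneath the membrane. Formins extend unbranched filaments, whereas WASP and the WAVE complex switch on the Arp2/3 complex, which starts a new filament as a branch on an existing one. Coronins and cofilin take old filaments apart, filamins and actinins tie filaments together, nonmuscle myosin II pulls on them, and talin and zyxin couple them to integrins at the plaques where a cell grips its surroundings. Nrf2, encoded by Nfe2l2, is a transcription factor that switches on antioxidant and detoxification genes.

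Several properties of the libraries touch every value below. Nfe2l2 itself was at 17.1 to 26.1 TPM in GC-WT and 11.4 to 27.3 TPM in FL-WT mice, against 3.60 to 7.18 TPM in GC-KO and 2.22 to 4.31 TPM in FL-KO mice, with no overlap between genotypes. Small noncoding RNAs (Rn7s1, Rn7s2, Rn7sk, Rpph1 and Rmrp) took 35.4 to 59.6% of the TPM of a library, and the median of all tested genes was itself shifted, by -0.22 log2 for GC-KO vs. GC-WT, -0.25 for FL-KO vs. FL-WT, -0.24 for FL-WT vs. GC-WT and -0.29 for FL-KO vs. GC-KO. A difference relative to all genes is therefore given where it matters. Libraries of Nrf2-KO mice also held relatively less of GC-rich transcripts. For each library, the log2 deviations from the gene means over all 24 libraries were fitted on GC content and transcript length together. These slopes therefore compare libraries with each other, and their sign is relative. The GC slope, in log2 units per 10 percentage points of GC, was 0.05 to 0.33 in GC-WT, -0.10 to 0.32 in FL-WT, -0.21 to 0.06 in GC-KO and -0.35 to -0.24 in FL-KO libraries. The slope on transcript length, in log2 units per doubling, had a median of 0.144 in GC-WT libraries, 0.0293 for FL-WT, -0.0327 for GC-KO and -0.127 for FL-KO, and its part in the levels of the 10 genes was not tested. The longest transcripts of the 10 genes were 51.8 to 58.0% GC, against a median of 49.1% for expressed genes.

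In GC-WT marrow, Coro1a was the most abundant of the 10 at 333 ± 56.0 TPM (mean ± SD, n = 6), above Arpc1b at 118 ± 21.4 TPM with no overlap between the mice. Flna (102 ± 27.3 TPM), Myh9 (98.8 ± 28.0 TPM), Vasp (82.1 ± 9.54 TPM), Zyx (72.5 ± 16.0 TPM), Tln1 (58.6 ± 16.0 TPM), Fmnl1 (43.9 ± 7.60 TPM), Cyfip2 (32.9 ± 6.81 TPM) and Was (25.2 ± 3.49 TPM) followed, and each of them overlapped with its neighbour in this order. In FL-KO marrow Coro1a (180.1 ± 26.9 TPM), Arpc1b (94.4 ± 12.6 TPM), Vasp (35.7 ± 6.38 TPM) and Flna (20.7 ± 4.0 TPM) followed each other without overlap, whereas Flna overlapped with Myh9 below it. Fmnl1, at 5.67 ± 1.56 TPM, and Cyfip2, at 5.68 ± 1.06 TPM, shared the last place. Zyx was at 9.11 ± 2.23 TPM there, below Tln1 at 10.8 ± 2.51 TPM, although their mice overlapped.

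**Figure D1:**
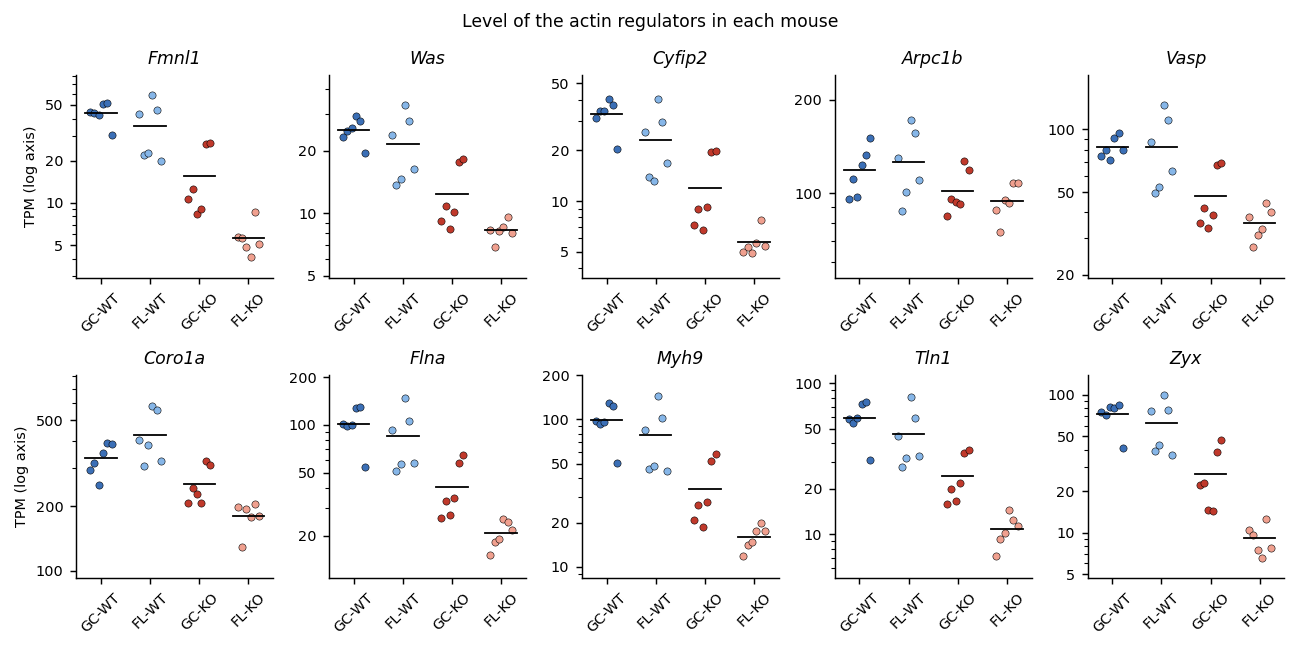
Level of each of the 10 genes in TPM on a log axis, with a point per mouse, a line at the mean of 6 mice and the groups on the horizontal axis. The FL-KO mice lie lowest for 9 genes without overlapping the FL-WT mice, as for Zyx at 6.58 to 12.5 TPM, whereas all groups overlap for Arpc1b.

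Between genotypes, 7 of the 10 genes were lower by a factor of 2 or more without Nrf2 on the ground, and 9 of 10 after flight. Their median log2 difference was -1.30 on the ground and -1.83 after flight. The mice of both genotypes did not overlap for 4 of the 10 on the ground, where 9.15% of all tested genes were lower without overlap, and for 9 of 10 after flight, where 20.6% of all genes were. These counts describe the choice of the genes, since the same contrast was used to choose them. Fewer cells that express a gene and less RNA of it per cell cannot be told apart in whole marrow.

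Of the genes that build unbranched filaments, Fmnl1 (ENSMUSG00000055805.15, chr11:103171107-103198901, plus strand) encodes a formin of blood cells. Coordinates are those of the whole gene on GRCm38, and values are given below as the lowest, median and highest mouse of a group. GC-WT mice had 30.4, 44.0 and 51.6 TPM, and FL-WT mice 19.9, 32.8 and 58.8 TPM. In GC-KO mice the values were 8.37, 11.7 and 26.7 TPM, and in FL-KO mice 4.10, 5.37 and 8.61 TPM. Every Nrf2-KO mouse thus lay below every wild-type mouse of the same condition, although the 2 highest GC-KO mice exceeded the 3 lowest FL-WT mice. The mean of the FL-KO mice was 16.0% of that of FL-WT mice, and the log2 difference was -1.56 for GC-KO vs. GC-WT and -2.36 for FL-KO vs. FL-WT.

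Of the genes that start branched filaments, Was (ENSMUSG00000031165.6, chrX:8081453-8090498, minus strand) encodes WASP, the activator of the Arp2/3 complex in blood cells that is missing in Wiskott-Aldrich syndrome. GC-WT mice had 19.6, 25.3 and 29.6 TPM (lowest, median and highest), and FL-WT mice 13.7, 20.1 and 33.4 TPM. GC-KO mice had 8.35, 10.5 and 18.2 TPM, and FL-KO mice 6.84, 8.27 and 9.56 TPM. Nrf2-KO mice did not overlap with wild-type mice under either condition, and the log2 difference was -1.02 on the ground and -1.22 after flight.

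Cyfip2 (ENSMUSG00000020340.16, chr11:46193850-46312859, minus strand) encodes a subunit of the WAVE regulatory complex, which relays Rac signals to Arp2/3. It was at 20.5, 34.1 and 40.3 TPM in the lowest, median and highest GC-WT mice and at 13.2, 21.2 and 40.4 TPM in FL-WT mice. Nrf2-KO mice were lower without overlap, at 6.72, 9.13 and 19.8 TPM on the ground and 4.91, 5.38 and 7.77 TPM after flight. The log2 difference between genotypes was -1.49 on the ground and -1.76 after flight.

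Arpc1b (ENSMUSG00000029622.16, chr5:145114215-145130705, plus strand), by contrast, encodes the Arp2/3 subunit that prevails in blood cells and went against the description of these genes as lowered without Nrf2. GC-WT mice had 95.8, 117 and 150.4 TPM and GC-KO mice 84.0, 94.6 and 127 TPM, and after flight FL-WT mice had 87.6, 119.9 and 173 TPM and FL-KO mice 74.6, 94.0 and 108 TPM. All 4 groups overlapped. Its log2 differences of -0.21 and -0.39 between genotypes were 0.01 and -0.14 relative to the median of all genes, and with libraries scaled by the median of ratios they were 0.12 and 0.01.

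Vasp (ENSMUSG00000030403.9, chr7:19256929-19271817, minus strand) encodes a protein that binds the growing end of filaments and feeds them with actin. In GC-WT mice the lowest, median and highest values were 71.4, 79.8 and 96.3 TPM, and in FL-WT mice 49.7, 74.8 and 131 TPM. They were 33.6, 40.3 and 69.1 TPM in GC-KO mice and 27.2, 35.6 and 44.5 TPM in FL-KO mice. Genotypes did not overlap, with a log2 difference of -0.83 on the ground and -1.11 after flight, the least of the genes without overlap under both conditions.

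Coro1a (ENSMUSG00000030707.15, chr7:126699773-126707787, minus strand) encodes coronin 1A, a coronin of leukocytes that acts on filament turnover and T cell survival. GC-WT mice lay at 251, 335 and 393 TPM, and GC-KO mice at 206, 236 and 323 TPM, which overlapped. FL-WT mice lay at 305, 395 and 582 TPM, and FL-KO mice at 129.6, 186 and 205 TPM, with a gap between the lowest FL-WT and the highest FL-KO mouse. The log2 difference between genotypes was -0.40 on the ground, or -0.18 relative to all genes, and -1.21 after flight.

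Flna (ENSMUSG00000031328.15, chrX:74223461-74249820, minus strand) encodes filamin A, which crosslinks filaments and anchors them to membrane proteins. It was at 54.2, 101 and 130.3 TPM in the lowest, median and highest GC-WT mice and at 51.2, 75.4 and 147 TPM in FL-WT mice. It was at 26.0, 33.9 and 64.6 TPM in GC-KO mice and at 15.2, 20.3 and 25.7 TPM in FL-KO mice. The ground groups overlapped only through the lowest GC-WT mouse, mouse 10, and the flight groups did not overlap. The log2 difference between genotypes was -1.34 on the ground and -1.90 after flight.

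Myh9 (ENSMUSG00000022443.17, chr15:77760587-77842175, minus strand) encodes the heavy chain of nonmuscle myosin IIA, the main contractile motor of leukocytes and platelets. GC-WT mice had 51.0, 97.3 and 129 TPM and FL-WT mice 44.98, 66.8 and 143 TPM. GC-KO mice had 18.5, 27.0 and 58.0 TPM and FL-KO mice 11.8, 16.2 and 19.8 TPM. Mouse 10 of GC-WT again lay within the range of GC-KO mice, and no FL-KO mouse reached an FL-WT mouse. Its log2 difference of -1.59 on the ground was the largest fall of the 10, and it was -2.10 after flight.

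At the adhesion plaque, Tln1 (ENSMUSG00000028465.16, chr4:43531519-43562691, minus strand) encodes talin 1, which activates integrins and ties them to actin. The lowest, median and highest GC-WT mice had 30.9, 58.5 and 75.4 TPM, and FL-WT mice 28.1, 38.9 and 81.5 TPM. GC-KO mice had 15.8, 21 and 36.2 TPM, and FL-KO mice 7.17, 10.8 and 14.4 TPM. Talin overlapped between genotypes on the ground only through GC-WT mouse 10, with a log2 difference of -1.26, and did not overlap after flight, with -1.93.

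Zyx (ENSMUSG00000029860.16, chr6:42349630-42360213, plus strand) encodes zyxin, a plaque protein that recruits VASP to stretched filaments. GC-WT mice were at 41.3, 78.3 and 84.1 TPM, and GC-KO mice at 14.3, 22.6 and 46.8 TPM. FL-WT mice were at 36.7, 60.0 and 99.96 TPM, and FL-KO mice at 6.58, 8.75 and 12.5 TPM. Mouse 10, at the lowest GC-WT value, was again the only wild-type mouse of the ground control within the range of GC-KO mice. After flight the genotypes were far apart, and FL-KO mice had on average 14.6% of the FL-WT level. On the log2 scale Zyx differed by -1.51 on the ground and by -2.57 after flight, the largest of the 10 in flight mice.

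The differences were thus uneven among the 10. The ratio of genes within a library, which does not change with the factor by which a library is scaled, describes this. Zyx was picked for its fall and Arpc1b was the least lowered, so a separation of their ratio follows from that choice and is no test. A trend of a library on GC content can still enter the ratio, since Zyx is 56.6% GC and Arpc1b 52.5%, and its part was not tested. Per unit of Arpc1b TPM, Zyx stood at a median of 0.651 in wild-type mice on the ground and 0.471 after flight, and without Nrf2 at 0.253 and 0.0975. The highest FL-KO ratio, 0.130, lay below the lowest of any other group, 0.156. The ratio of Coro1a to Arpc1b ranged from 2.92 to 3.81 in FL-WT, 2.59 to 3.06 in GC-WT, 2.25 to 2.6 in GC-KO and 1.67 to 2.24 in FL-KO mice. By median, FL-WT mice were highest in this ratio (3.43) and FL-KO mice lowest (1.90), with GC-WT (2.86) and GC-KO mice (2.51) between them. FL-WT and GC-WT mice overlapped, and this order was not tested.

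Since the data turn on how far each gene fell, the stretches upstream of the transcription start are shown for the 2 most lowered genes and the least lowered gene in flight mice for which most of the upstream stretch lay outside annotated exons. They are sequences of RefSeq on GRCm38.p6, written 5′ to 3′ on the strand of the gene, and capitals mark GC boxes (GGGCGG on either strand). Fmnl1 is at chr11:103170888-103171106, Myh9 at chr15:77842176-77842425 and Arpc1b at chr5:145114006-145114214.
Fmnl1: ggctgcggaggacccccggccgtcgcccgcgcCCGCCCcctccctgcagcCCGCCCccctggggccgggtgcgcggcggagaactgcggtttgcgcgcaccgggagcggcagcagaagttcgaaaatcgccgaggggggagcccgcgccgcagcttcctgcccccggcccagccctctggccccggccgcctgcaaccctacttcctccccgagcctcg
Myh9: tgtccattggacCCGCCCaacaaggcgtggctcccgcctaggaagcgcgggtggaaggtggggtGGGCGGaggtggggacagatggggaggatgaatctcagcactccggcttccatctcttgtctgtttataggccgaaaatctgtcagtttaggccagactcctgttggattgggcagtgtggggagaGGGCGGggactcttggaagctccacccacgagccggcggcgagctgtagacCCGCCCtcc
Arpc1b: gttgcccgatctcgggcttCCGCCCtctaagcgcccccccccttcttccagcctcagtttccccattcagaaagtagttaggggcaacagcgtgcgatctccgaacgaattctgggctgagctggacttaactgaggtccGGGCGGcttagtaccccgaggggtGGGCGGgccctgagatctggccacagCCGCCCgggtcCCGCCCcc

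The shown stretches held 2 GC boxes in Fmnl1, 4 in Myh9 and 5 in Arpc1b, so GC boxes were found in lowered genes and in the least lowered one. Promoters of all 10 genes were searched from 250 bases before to 50 bases after the start on both strands, counting overlapping matches. The core of the antioxidant response element bound by Nrf2, TGACNNNGC, was found in none of them, against 12.4% of 32817 promoters, and a CArG box, the site of serum response factor, in none, against 1.63%. The ETS core CCGGAA was found in Cyfip2 and in 1 of 2 promoters of Coro1a, against 14.9% of all, and GGGCGG in Fmnl1, Cyfip2, Arpc1b, Coro1a, Flna, Myh9 and Zyx, against 35.6%. The promoters of the 10 genes were 53.3 to 79.3% GC, against a median of 52.7% for all promoters. The part of this in the matches to GGGCGG was not tested. No match says only that these letters are not in the window.

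Flight compared with ground was not itself used to choose the genes and was tested with limma across all genes. The groups compared within a genotype do enter the contrasts between genotypes by which Fmnl1, Cyfip2 and Zyx were picked. Comparisons within a genotype are therefore not wholly independent of the choice. In wild-type mice none of the 10 was a DEG (2-fold or more apart at an adjusted p under 0.1), where 0.938% of all genes were DEGs with lower levels in FL-WT mice, and 1 of the 10 had an unadjusted p under 0.05, where 41.7% of all genes had one in this direction. This gene, Cyfip2, was lower at an adjusted p under 0.1, at -0.57 ± 0.25 in log2 (SE, n = 6 a group, adjusted p = 0.085), where 39.0% of all genes were lower at that level. The log2 values of the others ran from -0.42 for Myh9 to 0.33 for Coro1a, and FL-WT and GC-WT mice overlapped for all 10, where 4.19% of all genes were lower in FL-WT mice without overlap. The spread was wide in FL-WT mice: without FL-WT mouse 07, the highest for all 10 genes, 6 of 10 were lower at an adjusted p under 0.1, where 58.8% of all genes were lower in that fit. Coro1a was higher at that level without GC-WT mouse 10, FL-WT mouse 05 or FL-WT mouse 10, and Myh9 and Tln1 were lower without GC-WT mouse 10. Cyfip2 in turn did not pass without GC-WT mouse 05, 06, 07 or 08 or without FL-WT mouse 05, 06 or 10, each left out alone, nor with the median of ratios (-0.20, adjusted p = 0.45), quantile normalization (-0.36, 0.17) or GC and length trends removed (-0.14, 0.49). Relative to the median of all genes, the median of the 10 was -0.05.

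In Nrf2-KO mice, Zyx, Fmnl1 and Tln1 were downregulated after flight as DEGs, 3 of 10, where 2.13% of all genes were DEGs with lower levels. On the log2 scale Zyx changed by -1.35 ± 0.26 (SE; adjusted p = 0.00053), Fmnl1 by -1.20 ± 0.27 (adjusted p = 0.0015) and Tln1 by -1.05 ± 0.24 (adjusted p = 0.0021). FL-KO mice retained 34.2% of the mean GC-KO level of Zyx, 36.2% of that of Fmnl1 and 44.6% of that of Tln1. Myh9 (-0.93, adjusted p = 0.012), Flna (-0.87, 0.0089), Cyfip2 (-0.84, 0.011), Coro1a (-0.48, 0.022) and Was (-0.48, 0.048) were also lower, by less than 2-fold, which makes 8 of 10 at an adjusted p under 0.1, where 53.1% of all genes were lower at that level. With the median of ratios 6 were lower and 1 higher at that level, where 20.4% of all genes were lower and 19.1% higher. With GC and length trends removed 4 were lower and 1 higher. There 14.4% of all genes were lower, and a larger share of them was higher. Coro1a (-0.03 and -0.04) and Was (-0.07 and -0.04) did not pass under these settings.

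Vasp (-0.36, adjusted p = 0.15) and Arpc1b (-0.10, adjusted p = 0.58) did not pass in Nrf2-KO mice, nor did Was without GC-KO mouse 11 or 12 or FL-KO mouse 02. Vasp passed without GC-KO mouse 01 or 04. FL-KO mice lay below GC-KO mice without overlap for Coro1a, Flna, Tln1 and Zyx, 4 of 10, where 18.4% of all genes did. Relative to all genes, the median of the 10 was -0.57, and Zyx was at -1.06. FL-KO libraries also enter the contrast between genotypes by which Fmnl1, Cyfip2 and Zyx were picked, so this comparison is not wholly independent of the choice.

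Averaged over both genotypes, a contrast in which genotype is balanced, 7 of the 10 were lower in flight mice at an adjusted p under 0.1, where 66.9% of all genes were, so this share was near that of all genes. They were Fmnl1, Was, Cyfip2, Flna, Myh9, Tln1 and Zyx, with log2 fold changes from -0.81 for Zyx to -0.38 for Was. None reached 2-fold, where 1.08% of all genes were DEGs with lower levels. An unadjusted p under 0.05 was found for 7 of the 10 and, in this direction, for 63.9% of all genes. With the median of ratios 4 were lower and 2 higher at an adjusted p under 0.1 (all genes 24.1% and 28.6%), and with GC and length trends removed 3 and 2 (all genes 20.5% and 31.7%). The values were -0.22 for Vasp, -0.08 for Coro1a and -0.02 for Arpc1b, which did not pass, although Vasp did without FL-WT mouse 07 or 08.

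All 10 genes had a more negative log2 fold change by flight in Nrf2-KO than in wild-type mice, by -0.17 for Arpc1b to -1.06 for Zyx, as did 65.8% of all genes. The difference itself, tested as the interaction of flight and genotype, did not pass for any of them at an adjusted p under 0.1, where 0.0162% of all genes did. Coro1a came closest, at -0.81 ± 0.23 (SE, unadjusted p = 0.0015, adjusted p = 0.58), its flight difference being 0.33 with Nrf2 (adjusted p = 0.12) and -0.48 without it. Zyx (-1.06, unadjusted p = 0.0085) and Fmnl1 (-0.80, unadjusted p = 0.044) also had an unadjusted p under 0.05, where 3.03% of all genes had one in this direction. The interaction is also the difference between both genotype contrasts, by which Zyx and Fmnl1 were picked, so their values are a description and no independent test.

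Some of these values depended on how libraries were scaled. With the median of ratios, which sets the median of all genes near 0, Zyx (-0.93, adjusted p = 0.0058), Fmnl1 (-0.80, 0.011) and Tln1 (-0.63, 0.01) were still lower in FL-KO than in GC-KO mice, but by less than 2-fold. Arpc1b turned to 0.34 in Nrf2-KO mice (adjusted p = 0.014) and grew from 0.07 to 0.45 in wild-type mice (adjusted p = 0.0025), while Coro1a was higher in FL-WT mice, at 0.72 (adjusted p = 0.00058). Under this scaling 19.1% of all genes were higher at an adjusted p under 0.1 in Nrf2-KO and 20.6% in wild-type mice. With the trend of each library on GC content and transcript length removed instead, Zyx (-0.78), Fmnl1 (-0.58), Tln1 (-0.40) and Cyfip2 (-0.32) remained lower for FL-KO vs. GC-KO at an adjusted p under 0.1, where 14.4% of all genes were. Coro1a passed in the interaction under this setting (-0.58, adjusted p = 0.07), where 0.283% of all genes passed with a lower and 0.129% with a higher value.

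The differences between genotypes shrank in the same way, to a median of -0.97 on the ground and -1.46 after flight with the median of ratios, and to -0.62 and -1.03 with the GC and length trends removed. Under that last setting, Zyx was at -0.91 on the ground and -1.74 after flight, Fmnl1 at -0.90 and -1.44, and Arpc1b at 0.27 and 0.24. After flight, Zyx and Fmnl1 had the most negative values and Arpc1b the highest under all 3 of these settings. Whether the composition of the libraries takes part in the remaining differences was not tested.

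**Figure D2:**
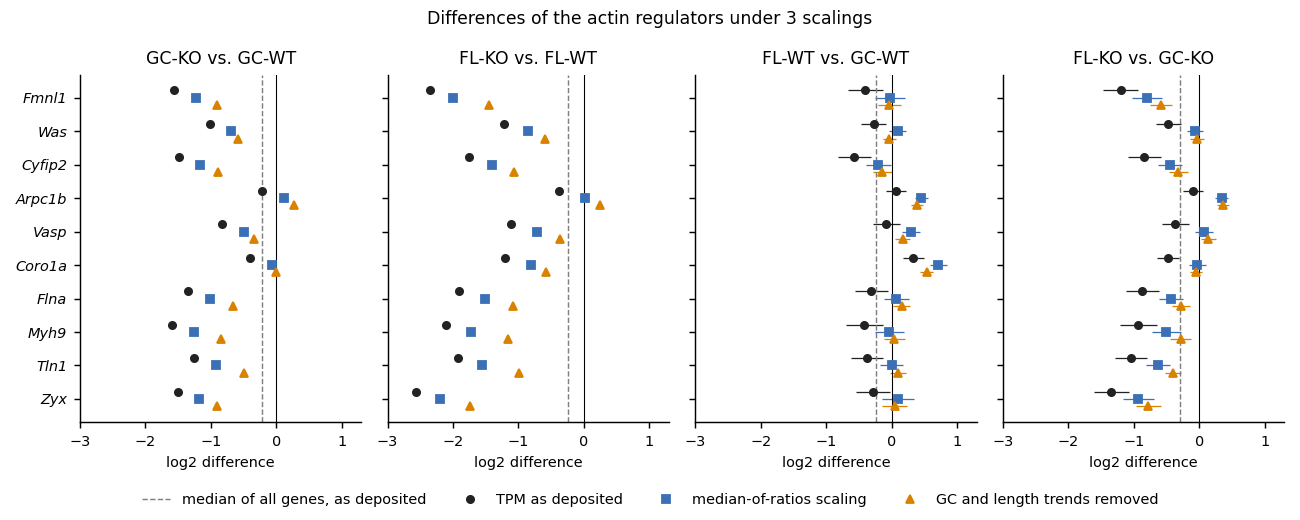
Log2 differences of the 10 genes (vertical axis) in 4 comparisons (panels) with TPM as deposited (circles), with median-of-ratios scaling (squares) and with GC and length trends removed (triangles), the dashed line marking the median of all genes and bars in the flight comparisons the SE. Zyx stays lowest for FL-KO vs. FL-WT, at -2.57, -2.20 and -1.74, whereas Arpc1b crosses 0 there.

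In 3 of the 4 groups the order of the mice was largely shared by the 10 genes, and in FL-KO less so. FL-WT mouse 07 was the highest of its group for all 10, and mice 05, 06 and 10 were the 3 lowest for all 10. GC-KO mice 11 and 12 were the 2 highest for all 10 and stood apart from the other 4 GC-KO mice, as for Fmnl1 at 26.4 and 26.7 TPM. GC-WT mouse 10 was the lowest of its group for 7 of the 10, but the highest for Arpc1b. FL-KO mouse 11 was the highest for 8 of the 10, but mouse 09 was the highest for 2 and the lowest for 2, and mouse 01 was among the 3 lowest for 5 and the 3 highest for 5.

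The GC slope of the libraries moved with some of these mice. GC-KO mice 12 and 11 had the highest slopes of their group, 0.06 and -0.04, GC-WT mouse 10 had the lowest of its group, 0.05, and FL-WT mouse 07 the highest of its group, 0.32. FL-WT mice 05 and 06 were as low as mouse 10 for these genes, at GC slopes of 0.16 and 0.14. Mouse 03, in which the 10 genes were among the 3 highest of the group, was close to these at 0.14. On transcript length, the slopes were 0.011, -0.041 and -0.014 in the low FL-WT mice 05, 06 and 10. In the high FL-WT mice 03, 07 and 08 they were 0.058, 0.117 and 0.048. GC-KO mice 11 and 12 (0.027 and 0.013) and FL-KO mouse 11 (-0.078) had the highest length slopes of their groups. GC-WT mouse 10 had the lowest of its group, 0.015. FL-KO mice had uniformly low GC slopes, and the range of their mean log2 level over the 10 genes, 4.14 to 4.63, was narrower than that of GC-KO mice, 4.61 to 5.75. The part of these slopes in the levels of the 10 genes was not tested.

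**Figure D3:**
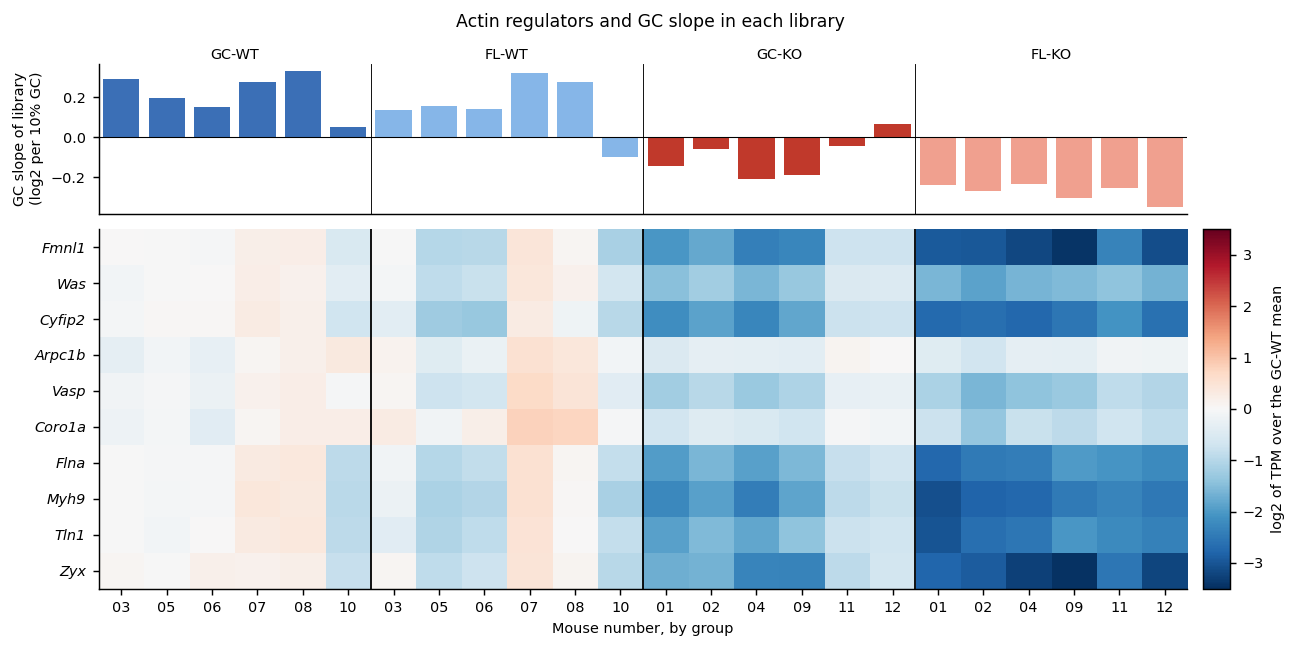
Bars show the GC slope of each of the 24 libraries, fitted to log2 deviations from the gene means over all libraries. The colours below show the log2 of the TPM of each gene over its GC-WT mean, with a column per mouse and the groups separated by lines. FL-KO columns are the darkest and carry slopes of -0.35 to -0.24, and the rows of Arpc1b and Coro1a are the palest.

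Correlations describe this joint movement over the 24 libraries, after the mean of each group was subtracted. Between pairs of the 10 genes Pearson's r ranged from 0.49 for Arpc1b with Zyx to 0.99 for Flna with Tln1, with a median of 0.86. With the mean of the other 9, Was (0.98) and Cyfip2 (0.97) varied most closely, and Arpc1b (0.71) and Coro1a (0.73) least. All genes of a library share its composition, and the median r with the mean of the 10 was already 0.62 over 5015 other genes of at least 5 TPM, of which 14.8% were above 0.9.

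The 5 genes that varied most like the 10 were Plcg2 (r = 0.99), which encodes a phospholipase of immune receptor signalling, Myo1f (0.99), a myosin of leukocytes, Lasp1 (0.99), an actin-binding protein of adhesion plaques, Rps6ka1 (0.99), a kinase downstream of ERK, and Ckap4 (0.99), a membrane protein of the endoplasmic reticulum. On the ground they were lower in Nrf2-KO mice, from -1.05 (adjusted p = 0.00059) for Rps6ka1 to -1.35 (adjusted p = 0.00053) for Lasp1 in log2. After flight they ran from -1.45 (adjusted p = 4.8e-06) to -2.02 (adjusted p = 1.8e-06). Of all genes, 3.04% and 8.36% were downregulated DEGs in these comparisons, and 42.9% and 47.2% were lower at an adjusted p under 0.1. These 5 genes were chosen for varying with the 10 in the same libraries, so their values are no independent evidence. Their GC content was 54.2 to 57.3%, above the upper quartile of expressed genes, 53.8%, and its part was not tested.

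In length and base composition the 10 genes differed among themselves. The longest transcript ran from 1747 nt for Coro1a to 8456 nt for Flna, with a median of 3506 nt against 3107 nt for 10306 expressed genes, and their median GC content of 56.8% lay above the upper quartile of these genes, 53.8%. Over the 10 genes, the Spearman correlation of transcript length with the log2 difference was -0.59 for GC-KO vs. GC-WT, -0.54 for FL-KO vs. FL-WT, -0.75 for FL-WT vs. GC-WT and -0.54 for FL-KO vs. GC-KO, so longer genes had the lower values. With GC content, which spanned only 51.8 to 58.0% in the 10 genes, it was 0.07, -0.07, 0.31 and -0.15 in the same order. Over the 10306 expressed genes, the correlation with length was -0.33, -0.24, -0.40 and -0.30 in that order. With GC content it was -0.45, -0.54, -0.04 and -0.32 over those genes. The values of the 10 genes are descriptions over 10 points that share their libraries, and their comparisons share groups.

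Each of the 10 genes was more abundant than its paralogues of wider expression. In GC-WT mice Was was at 25.2 TPM and Wasl, its ubiquitous relative, at 3.26 ± 0.540 TPM. Cyfip1 was at 8.33 ± 1.3 TPM, Fmnl2 at 3.90 ± 0.604 TPM, Fmnl3 at 4.55 ± 0.896 TPM, Arpc1a at 21.9 ± 3.57 TPM, Coro1b at 38.7 ± 4.44 TPM and Myh10 at 3.08 ± 0.953 TPM, and each lay below its partner in GC-WT mice. Tln2, Flnc and Enah stayed below 1 TPM in group means.

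Paralogues were tested between genotypes, since they were not chosen by that contrast. For FL-KO vs. FL-WT, 47.2% of all genes were lower at an adjusted p under 0.1. Paralogues of the WAVE complex, formins and coronins were lower there, Cyfip1 at -0.997 (adjusted p = 7.4e-05), Fmnl3 at -1.16 (adjusted p = 1.5e-05), Coro1b at -1.06 (adjusted p = 7.1e-06) and Coro1c at -1.19 (adjusted p = 8.0e-06). Wasl (-0.22, adjusted p = 0.19), Arpc1a (-0.07, adjusted p = 0.73), Myh10 (-0.26, adjusted p = 0.2) and Lpp (-0.23, adjusted p = 0.16) did not pass. On the ground Cyfip1 (-0.77, adjusted p = 0.0018), Fmnl3 (-0.77, adjusted p = 0.0019) and Coro1c (-0.91, adjusted p = 0.00056) were lower as well, where 42.9% of all genes were lower at an adjusted p under 0.1. In flight mice Myh10 was lower in both genotypes without overlap, at -0.78 (adjusted p = 0.0012) in wild-type and -0.84 (adjusted p = 0.00037) in Nrf2-KO mice. Of all genes, 4.19% and 18.4% were lower without overlap there, and 39.0% and 53.1% were lower at an adjusted p under 0.1. Wasl was lower at -0.37 (adjusted p = 0.034) in wild-type mice, where the groups overlapped, and at -0.42 (adjusted p = 0.013) without overlap in Nrf2-KO mice. Fold changes of genes near 1 TPM are understated by the added 1 TPM.

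**Figure D4:**
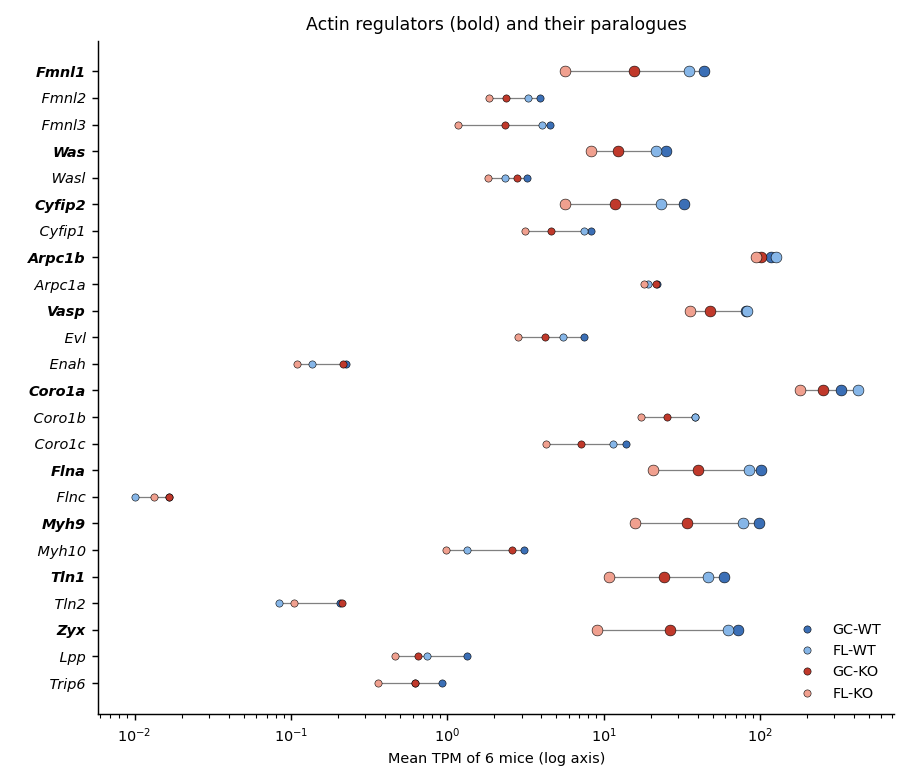
Mean TPM of 6 mice on a log axis for each of the 10 genes (bold, larger points) and their paralogues (smaller points), coloured by group. Each of the 10 lies to the right of its paralogues in GC-WT mice, as for Was at 25.2 TPM and Wasl at 3.26 TPM, and Arpc1b spans the shortest range of the 10.

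The wider actin machinery was followed in 101 other genes of 9 lists, which include paralogues given above, such as Cyfip1, Fmnl3 and Coro1b. Of these 101 genes, chosen with earlier results known, 94 were tested. In GC-KO vs. GC-WT, 15 were DEGs, all downregulated, where 3.04% of all genes were downregulated and 0.129% upregulated DEGs, and 64 were lower at an adjusted p under 0.1, where 42.9% of all genes were. Their median was -0.60. The count of DEGs was 23 without GC-WT mouse 10 and 26 without GC-KO mouse 11 or without GC-KO mouse 12, and fell to 4 with the median of ratios and to 0 with GC and length trends removed. In FL-KO vs. FL-WT, 36 were DEGs, all downregulated, where 8.36% of all genes were downregulated and 0.0970% upregulated DEGs, and 67 were lower at an adjusted p under 0.1, where 47.2% of all genes were. Their median was -0.71, and the count of DEGs was 16 with the median of ratios and 7 with GC and length trends removed.

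Among nucleators, 5 of 8 tested formins other than Fmnl1 were lower for FL-KO vs. FL-WT at an adjusted p under 0.1, where 47.2% of all genes were, the share beside which this and the next counts stand. Diaph1, a formin of many cell types, was lower at -1.59 (adjusted p = 2.8e-06), whereas Diaph3 was at 0.23 (adjusted p = 0.26). Of 11 WASP and WAVE regulators, 6 were lower, but the 2 most abundant, the WAVE subunits Brk1 (-0.06, adjusted p = 0.76) and Abi1 (-0.25, adjusted p = 0.16), did not pass. Of 8 Arp2/3 genes besides Arpc1b, 5 were lower and none by 2-fold, with Actr3 at -0.46 (adjusted p = 0.012) and Arpc3 at -0.41 (adjusted p = 0.017), and their median of -0.39 was close to the -0.39 of Arpc1b.

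Of 22 genes of actin, coronins and filament turnover, 14 were lower and 9 were DEGs. Actb, which encodes beta-actin itself, was lower at -1.48 (adjusted p = 9.9e-06), from 2290.02 to 775 TPM in group means, whereas Tmsb4x, which encodes the actin-sequestering thymosin beta 4, was at 0.06 (adjusted p = 0.78). All 6 tested crosslinkers other than Flna were lower, among them the leukocyte plastin Lcp1 at -0.87 (adjusted p = 0.0008) and the calponin Cnn2 at -1.18 (adjusted p = 5.0e-06). At the adhesion plaque 8 of 11 were lower, with Fermt3, the kindlin of blood cells, at -1.40 (adjusted p = 2.5e-06) and the adaptor Lims1 at -0.15 (adjusted p = 0.54).

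Of 10 myosin genes other than Myh9, 7 were lower, but the light chain Myl6 (-0.10, adjusted p = 0.59) did not pass, so the heavy chain Myh9 and its most abundant light chain differed unequally. The light chain Myl12b, whose symbol is carried by 2 annotated genes, was at -0.32 (adjusted p = 0.079). Under serum response factor, which drives many actin genes, Srf was lower at -1.51 (adjusted p = 9.9e-07) and its actin-sensing coactivator Mrtfa at -2.09 (adjusted p = 9.9e-07), and both were lower on the ground at -0.86 (adjusted p = 0.00085) and -1.39 (adjusted p = 0.00042).

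Flight compared with ground gave smaller values for the same lists. In FL-WT vs. GC-WT, 22 of 94 were lower and 1, Myl6, was higher at 0.31 (adjusted p = 0.074), where 39.0% of all genes were lower, with a median of -0.22 against -0.24 for all genes. In FL-KO vs. GC-KO, 52 were lower, 5 of them DEGs, where 53.1% of all genes were lower and 2.13% DEGs, with a median of -0.38 against -0.29. Srf (-0.76, adjusted p = 0.0025) and Mrtfa (-0.998, adjusted p = 0.0036) were lower in FL-KO than in GC-KO mice, and in wild-type mice they were at -0.10 (adjusted p = 0.67) and -0.30 (adjusted p = 0.36).

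Markers of the cell types of marrow were measured beside these genes. Lower and higher markers are counted at an adjusted p under 0.1. At that level 42.9% of all genes were lower for GC-KO vs. GC-WT and 47.2% for FL-KO vs. FL-WT, with medians of -0.22 and -0.25. Of 13 pan-leukocyte markers, all of them detected, 9 were lower for GC-KO vs. GC-WT and 9 for FL-KO vs. FL-WT, with medians of -0.88 and -1.30, while their summed level was 1769 to 3056 TPM in FL-WT and 1574 to 2139 TPM in FL-KO mice. Of 10 mature neutrophil markers, 7 were lower for FL-KO vs. FL-WT, with a median of -0.34 and summed levels of 39311 to 54649 TPM and 45458 to 62001 TPM, and 4 were lower and 3 higher for GC-KO vs. GC-WT.

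Monocyte and macrophage markers had a median of -0.51 for FL-KO vs. FL-WT (7 of 11 lower), secondary granule genes -1.01 (6 of 7), promyelocyte genes -0.37 (2 of 5), B progenitor genes -0.26 (5 of 11), T and NK cell genes -0.27 (6 of 10), megakaryocyte genes -0.46 (5 of 10), stem and progenitor genes -0.67 (4 of 5 tested) and erythroid genes -0.01 (4 of 13 lower and 2 higher). Beside these counts and medians stand the 47.2% of all genes that were lower in this comparison and their median of -0.25. Summed erythroid markers were at 144926 to 206938 TPM in FL-WT and 152868 to 222560 TPM in FL-KO mice. In FL-KO vs. GC-KO, where Zyx, Fmnl1 and Tln1 were DEGs and 166008 to 244859 TPM of erythroid markers was found in GC-KO mice, the median was -0.40 for pan-leukocyte, -0.03 for mature neutrophil, -0.84 for megakaryocyte and -1.15 for erythroid markers. The median of all genes was -0.29 for FL-KO vs. GC-KO. No marker on these lists was at 0 in all libraries, and the part of the makeup of the marrow in the levels of the 10 genes was not tested.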

How the data were processed

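RNA was isolated from cryopreserved marrow and strand-specific libraries were sequenced on a DNBSEQ-G400, 1 for each of 24 mice. The values are TPM per gene as the authors deposited them, made with STAR 2.6.1 and RSEM 1.3.1 on mm10 (GRCm38) with GENCODE M21. RSEM shares reads between similar genes, so values of paralogues are estimates. TPM has the same sum in every library and keeps no read count, so the depth behind a value is unknown, and the precision is that of the 6 mice in a group.

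Groups were taken from the labels. Values were analysed as log2(TPM + 1) in genes above 1 TPM in at least 1 library with limma 3.58.1 in R 4.3.3, with 4 group means fitted to 24 libraries and Benjamini-Hochberg adjustment over 12373 genes, and checked on simulated data. A DEG was 2-fold or more apart at an adjusted p under 0.1, and fold changes are on the log2(TPM + 1) scale, which understates changes of low genes. All p-values below are from this fit unless another setting is named. Mean and SD are over TPM. Tables and figures were made with Python 3.11.15 (numpy 2.4.6, pandas 2.3.3, matplotlib 3.10.9).

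The members and lists were chosen with earlier results of these data known. The genes named were the 10 members, Nfe2l2, the 2 most abundant genes of each actin list, the paralogues of the members (some of these are not reported here), and the 5 genes of at least 5 TPM whose deviations from group means correlated best with the mean deviation of the members. Alternatives were a pseudocount of 0.1, no filter, a filter of TPM above 1 in 6 libraries, median-of-ratios scaling, quantile normalization, rescaling without 5 small RNAs, removal of the GC and length trends of each library (splines with 4 degrees of freedom over GC content and transcript length), a variance trend, fits of the compared groups alone, other thresholds, each library left out, and the mouse number as a block.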

Additional observations from a re-analysis of the deposited data

Results flagged for a closer look

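Single mice stood apart from the other 5 of their group in 4 of 40 sets of values (10 genes in 4 groups), by Dixon's criterion at its 95% level, which chance meets in about 1 in 20 sets. Zyx was at 41.3 TPM in GC-WT mouse 10, and the next lowest mouse of that group had 71.6 TPM. Fmnl1 was at 8.61 TPM in FL-KO mouse 11, with the next highest at 5.72 TPM, and Cyfip2 was at 7.77 TPM in the same mouse, with the next at 5.66 TPM. Coro1a was at 129.6 TPM in FL-KO mouse 02, the next lowest having 177 TPM.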

How the results depend on the processing

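The count of the 10 genes that were DEGs for FL-KO vs. GC-KO was 3, fell to 0 with median-of-ratios scaling, quantile normalization and GC and length trends removed, and was 8 with no minimum fold, when it was 1 for FL-WT vs. GC-WT and 7 in flight vs. ground. Leaving out single libraries gave 2 to 4 for FL-KO vs. GC-KO and 0 to 0 for FL-WT vs. GC-WT, flight vs. ground and the interaction. The median of the 10 for GC-KO vs. GC-WT, -1.30, was -0.62 with GC and length trends removed and -1.47 to -1.20 without single libraries. In FL-KO vs. FL-WT, -1.83 became -1.40 with quantile normalization, -1.03 with GC and length trends removed and -1.95 to -1.65 without single libraries. Listed actin genes that were DEGs for GC-KO vs. GC-WT numbered 15, and 26 with a pseudocount of 0.1, 4 with median-of-ratios scaling, 8 with quantile normalization, 30 without the small RNAs, 0 with GC and length trends removed, 65 with no minimum fold and 11 to 26 without single libraries. In FL-KO vs. FL-WT they numbered 36, and 16 with median-of-ratios scaling, 15 with quantile normalization, 7 with GC and length trends removed, 67 with no minimum fold and 32 to 41 without single libraries. With another scaling the sign of a flight difference turned for several of the 10. In flight vs. ground Was turned to 0.014 with median-of-ratios scaling, Arpc1b to 0.40 with it, 0.37 with GC and length trends removed and 0.18 with quantile normalization, Vasp to 0.19, 0.15 and 0.0098 in the same order, and Coro1a to 0.34, 0.24 and 0.025. In Nrf2-KO mice Arpc1b turned to 0.34, 0.36 and 0.17, and Vasp to 0.076 and 0.14 with the first pair of settings. Rescaling without the small RNAs turned Arpc1b to 0.063 in flight vs. ground, 0.077 in Nrf2-KO mice and 0.028 in the interaction, and Coro1a to 0.0040 in flight vs. ground. In wild-type mice, where 8 of 10 were below 0, 4 were with median-of-ratios scaling (Was, Vasp, Flna and Zyx turned, to 0.073 to 0.30), 3 with GC and length trends removed and 7 with quantile normalization. The cause of these changes was not tested.

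In FL-WT vs. GC-WT, the lower level of Cyfip2 missed an adjusted p of 0.1 without GC-WT mouse 05, 06, 07 or 08 or FL-WT mouse 05, 06 or 10, and for FL-KO vs. GC-KO that of Was missed it without GC-KO mouse 11 or 12 or FL-KO mouse 02. Ground and flight mice of a genotype carry the same numbers, but same-numbered mice correlated at -0.03 to 0.33 in their deviations, above 0.1 in 7 of 12 pairs, and 2 of 12 correlated best with their own number. With the mouse number as a replicate block the counts of DEGs among the 10 stayed at 0 for flight in wild-type mice, 3 in Nrf2-KO mice, 0 over both and 0 in the interaction, and those lower at an adjusted p under 0.1 numbered 4, 9 and 8 in the first 3 of these, in place of 1, 8 and 7, while the share of all genes was 49.1, 60.5 and 71.4% in place of 39.0, 53.1 and 66.9%. Without read counts, the part of sampling error in the spread between mice is unknown.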

Other observations

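Among further relatives of the 10 genes, the VASP relative Evl was lower in Nrf2-KO mice, at -0.72 (adjusted p = 0.0016) in log2 on the ground and -0.73 (adjusted p = 0.00081) after flight. The zyxin relative Lpp was lower on the ground (-0.48, adjusted p = 0.0048), or -0.26 relative to all genes. Trip6 was at -0.24 (adjusted p = 0.048) there, but at -0.02 relative to all genes. Over the 24 libraries Lpp had a mean of 0.80 TPM and Trip6 of 0.635 TPM, below the added 1 TPM. At an adjusted p under 0.1, 42.9% of all genes were lower between genotypes on the ground and 47.2% after flight. Diaph3, a formin that was at 0.22 (adjusted p = 0.29) between genotypes on the ground, was lower after flight in both genotypes, at -0.74 (adjusted p = 0.0019) in wild-type and -0.73 (adjusted p = 0.0013) in Nrf2-KO mice. Of all genes, 39.0% and 53.1% were lower at an adjusted p under 0.1 in these comparisons.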
